A study of Rattus norvegicus with 8 samples.

Results

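The 4 genes studied here, which mark the transmitter of a neuron, were followed in the lower lumbar spinal cord of rats. They were taken by identifier from the deposited count table, which holds 32883 Ensembl gene identifiers. Gad1 (ENSRNOG00000000007), Gad2 (ENSRNOG00000018200) and Slc32a1 (ENSRNOG00000015393) are the 3 inhibitory genes, and Slc17a6 (ENSRNOG00000016147) is the excitatory one. All 4 passed the filter on low counts, which kept 4159 genes. The table gives no symbols, so the pairing of these 4 identifiers with their names is taken as given and could not be checked here.

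All samples came from Sprague Dawley rats, and RNA from flash-frozen cord was read with CEL-Seq2, a method that counts captured transcripts from their 3' ends. In the injured group, 4 libraries were made 4 days after a hemisection, a cut through one side of the cord, at thoracic level 9. The uninjured group, 4 libraries, is labelled only as lacking a spinal cord injury; a sham operation, the side of the cord sampled, the age and the sex are not stated in these sources. The series asked how such an injury alters the transcriptome of intact cord further down. The labels do not tell whether each library came from its own animal, so p-values capture only how these libraries vary, which may be technical.

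Inhibitory neurons of the spinal cord use GABA, glycine or both. GABA is made from glutamate by glutamate decarboxylase, which exists as GAD67, encoded by Gad1 and present through the whole cell, and GAD65, encoded by Gad2 and concentrated at nerve terminals. The carrier encoded by Slc32a1, VGAT or VIAAT, loads both GABA and glycine into synaptic vesicles, so its transcript is found in GABAergic and glycinergic neurons alike, while the decarboxylases mark the GABAergic ones. Slc17a6 encodes VGLUT2, which loads glutamate into vesicles and is the main vesicular glutamate transporter of excitatory interneurons in the cord. In bulk tissue, fewer cells of a type and less RNA per cell cannot be told apart.

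The promoter windows of the 4 genes are shown as context for a set of genes compared across the same libraries. Each runs from 250 bases before to 50 bases after the start that RefSeq gives in build GRCr8, not the build named for the counts (Rnor_6.0), and all 4 symbols were found in that table. All lie on the plus strand: Gad1 at chr3:75777202-75777501, Gad2 at chr17:89671468-89671767, Slc32a1 at chr3:167686995-167687294 and Slc17a6 at chr1:110348197-110348496. Capitals mark matches, on either strand, to TATAAA, to GGGCGG (the GC box) and to CCAAT.
Gad1: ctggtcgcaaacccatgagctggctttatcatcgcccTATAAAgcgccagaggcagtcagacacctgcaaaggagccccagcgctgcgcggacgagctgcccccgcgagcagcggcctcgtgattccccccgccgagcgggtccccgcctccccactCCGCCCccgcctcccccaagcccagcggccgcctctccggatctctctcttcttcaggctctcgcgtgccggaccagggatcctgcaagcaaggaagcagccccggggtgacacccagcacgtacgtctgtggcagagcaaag
Gad2: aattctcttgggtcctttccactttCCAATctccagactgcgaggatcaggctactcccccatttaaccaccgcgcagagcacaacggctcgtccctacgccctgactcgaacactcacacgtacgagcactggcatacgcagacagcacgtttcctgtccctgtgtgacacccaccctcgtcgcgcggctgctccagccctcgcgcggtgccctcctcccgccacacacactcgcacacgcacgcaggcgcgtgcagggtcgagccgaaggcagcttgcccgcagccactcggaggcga
Slc32a1: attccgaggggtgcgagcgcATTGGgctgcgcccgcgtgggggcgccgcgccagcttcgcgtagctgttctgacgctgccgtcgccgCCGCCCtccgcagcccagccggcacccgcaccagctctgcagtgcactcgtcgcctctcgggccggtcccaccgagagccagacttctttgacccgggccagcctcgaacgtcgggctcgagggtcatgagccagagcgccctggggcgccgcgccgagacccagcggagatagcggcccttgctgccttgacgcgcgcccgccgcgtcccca
Slc17a6: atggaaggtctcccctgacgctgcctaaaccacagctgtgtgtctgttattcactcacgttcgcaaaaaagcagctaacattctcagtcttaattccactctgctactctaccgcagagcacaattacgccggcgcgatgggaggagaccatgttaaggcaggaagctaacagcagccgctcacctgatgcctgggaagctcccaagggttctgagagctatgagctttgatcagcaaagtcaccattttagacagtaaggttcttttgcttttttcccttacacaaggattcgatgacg

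Gad1 was the only one of the 4 windows with TATAAA, a match held by 14.2% of 33469 promoter windows of the same length. The match begins at position -213 from the start used in the table. GGGCGG, held by 33.1% of windows, matched once in Gad1 and once in Slc32a1. CCAAT, held by 37.5%, matched once in Gad2 and once in Slc32a1, and no searched motif matched in Slc17a6. The Slc17a6 window was also the poorest in G and C, 49.0% with 11 CpG pairs, against 63.7% to 73.7% and 26 to 42 CpG pairs in the 3 inhibitory genes and medians of 51.7% and 7 over all windows. These are descriptions of the letters in these windows.

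Depth was low. Libraries held between 119808 and 405537 molecules, both libraries numbered 3 in the sample titles were the shallowest of their group, and 1 molecule was worth between 2.40 and 11.6 CPM (counts scaled to a common total, relative to the molecules in tested genes and scaled with TMM factors). The 4 genes together had between 65 and 574 molecules in a library, 0.0543% to 0.153% of all its molecules. Their mean over libraries was 99.9 molecules for Slc32a1, 87.8 for Slc17a6, 65.0 for Gad1 and 55.0 for Gad2, above 88.1%, 86.0%, 80.2% and 76.2% of tested genes. Other tested genes carry no symbol here, so defining markers of neurons, glia or blood could not be read to check the tissue label, and the remaining genes of GABA, glycine and glutamate handling are not described.

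In the main fit, which does not use the number in the sample title, none of the 4 genes changed after injury beyond the spread between libraries. Comparisons by number are given further below. The fitted level after injury was 0.78 times the uninjured level for Gad1, 0.85 times for Slc32a1, 0.90 times for Slc17a6 and 0.95 times for Gad2. With edgeR's quasi-likelihood test, adjusted over all 4159 genes, 0 of the 4 passed, where 0.986% of tested genes did. At an unadjusted p under 0.05, 0 of 4 passed as well, where 7.84% of tested genes did. DESeq2 and limma-voom also called 0 of 4, where they called 59 of 4920 and 47 of 4159 tested genes. Injured and uninjured libraries overlapped in CPM for all 4, and 4.86% of tested genes had groups that did not overlap.

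Gad1 had 83, 37, 23 and 168 molecules in uninjured libraries 1 to 4 and 54, 47, 31 and 77 in injured libraries 1 to 4. Scaled for depth, this was 213, 163, 266 and 403 CPM without injury and 149, 126, 242 and 325 CPM after it. In both groups, libraries 3 and 4 were the high ones and libraries 1 and 2 the low ones, and the groups overlapped over most of their range. Group means were 261 ± 103 CPM without injury and 210 ± 91.3 CPM with it (SD, n = 4 each). edgeR fitted a log2 fold change of -0.36 (standard error 0.33; 95% interval -1.05 to 0.33; edgeR adjusted p = 0.982), and the exact two-sided permutation test of CPM gave p = 0.486, where 4 against 4 libraries can reach 0.0286 at the lowest. The interval leaves room for a fall of up to 2.07-fold in this GABA-synthesizing enzyme and for a rise of up to 1.26-fold.

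Gad2, the decarboxylase of nerve terminals, was the least abundant by mean count. It had 121, 37, 8 and 68 molecules in uninjured and 94, 52, 20 and 40 in injured libraries 1 to 4, or 311, 163, 92.7 and 163 CPM against 260, 139, 156 and 169 CPM. Library 1 was the highest of each group, and the lowest was uninjured library 3, whose 8 molecules have an exact 95% Poisson interval of 3.45 to 15.8, counting error only. Its mean was 182 ± 91.9 CPM without and 181 ± 54.0 CPM with injury (SD, n = 4 each). The fitted log2 fold change was -0.08 (standard error 0.31; 95% interval -0.72 to 0.57; edgeR adjusted p = 0.993; exact permutation p = 0.971). A fall of up to 1.65-fold and a rise of up to 1.49-fold lie within the interval.

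Slc32a1, the vesicular carrier shared by GABA and glycine neurons, was the most abundant and least variable of the 4. Molecule counts were 191, 88, 22 and 132 in uninjured and 148, 125, 31 and 62 in injured libraries 1 to 4, or 491, 388, 255 and 317 CPM against 409, 334, 242 and 261 CPM. Here libraries 1 and 2 were the high ones in both groups, opposite to Gad1. It averaged 363 ± 101 CPM without and 311 ± 76.1 CPM with injury (SD, n = 4 each). The fit gave a log2 fold change of -0.23 (standard error 0.25; 95% interval -0.75 to 0.30; edgeR adjusted p = 0.984; exact permutation p = 0.514), an interval from a 1.69-fold fall to a 1.23-fold rise.

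Slc17a6, the marker of glutamatergic neurons, had 179, 69, 12 and 121 molecules in uninjured and 131, 110, 34 and 46 in injured libraries 1 to 4. In CPM these were 460, 304, 139 and 290 against 362, 294, 265 and 194. The uninjured group held both the highest and the lowest of all 8 libraries, so the injured values lay inside its range. Averages were 298 ± 131 CPM without and 279 ± 69.6 CPM with injury (SD, n = 4 each). A log2 fold change of -0.15 was fitted (standard error 0.29; 95% interval -0.75 to 0.46; edgeR adjusted p = 0.991; exact permutation p = 0.857), and the interval reaches from a 1.69-fold fall to a 1.38-fold rise.

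**Figure D1:**
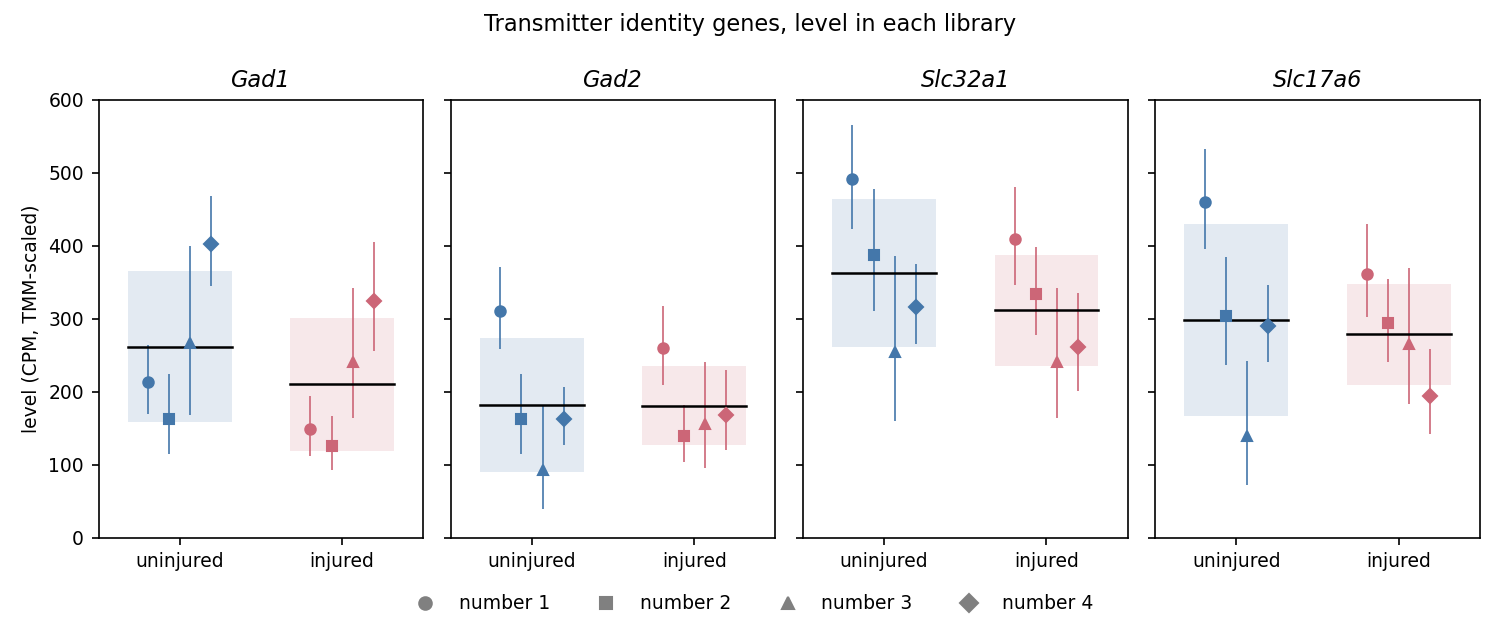
Level of each gene in every library, in TMM-scaled CPM on a linear axis; symbols give the number in the sample title, thin bars the exact 95% Poisson interval of the count, black lines and shaded boxes the group mean and SD (n = 4). The groups overlap for all 4 genes, and numbers 3 and 4 (triangles, diamonds) are the high ones for Gad1 and lie below numbers 1 and 2 for Slc32a1.

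Libraries that carry the same number in both groups deviated together across tested genes for numbers 1, 2 and 4 (correlations 0.39, 0.36 and 0.45). For number 3 the correlation was 0.17, below the highest between different numbers, 0.24. The numbers were therefore also compared pair by pair, a pairing that comes from the data. Gad1 was lower in the injured library of all 4 numbers, at 0.70, 0.77, 0.91 and 0.81 times its uninjured partner. Slc32a1 was also lower in all 4, at 0.83, 0.86, 0.95 and 0.83 times. A lower value in all 4 numbers was found for 8.99% of tested genes. With the number in the edgeR model neither gene passed the test, which called 110 of 4159 genes. The unadjusted edgeR p in that fit was 0.0596 for Gad1 and 0.166 for Slc32a1. Slc17a6 was lower in 3 of 4 numbers, at 0.79, 0.97, 1.91 and 0.67 times. Gad2 was lower in 2 of 4, at 0.84, 0.85, 1.68 and 1.03 times. For both Gad2 and Slc17a6 the largest ratio came from number 3, where the uninjured library had 8 and 12 molecules of them.

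**Figure D2:**
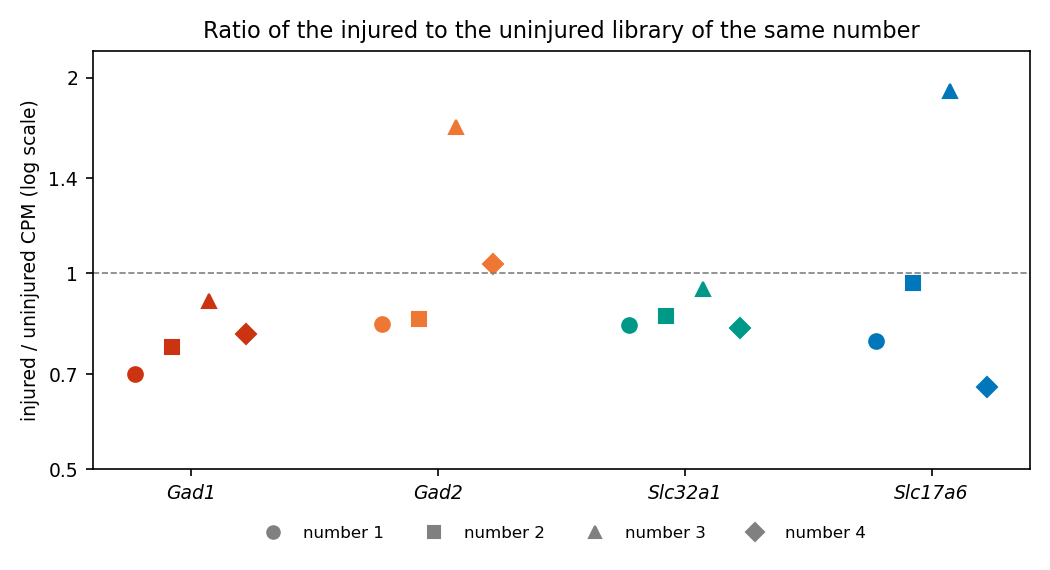
Ratio of the injured to the uninjured library with the same number, in CPM on a log axis, for each gene; the dashed line marks equal levels. Gad1 (0.70 to 0.91) and Slc32a1 (0.83 to 0.95) lie below the line for all 4 numbers, and number 3 stands highest for Gad2 (1.68) and Slc17a6 (1.91).

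Single libraries set the sign of the smallest differences. The log2 fold change of Gad2 was 0.31 without uninjured library 1 and 0.05 without injured library 2, and that of Slc17a6 was 0.13 without uninjured library 1. Without both libraries numbered 3, it was -0.17 for Gad2 and -0.30 for Slc17a6. Gad1 and Slc32a1 were fitted lower in every fit that left out 1 library, from -0.68 to -0.03 and from -0.39 to -0.04. The weakest value of Gad1 was that without uninjured library 4, which held 168 of the 520 Gad1 molecules counted. Within numbers 1 and 2 alone, the log2 fold changes of Gad1, Gad2, Slc32a1 and Slc17a6 were -0.47, -0.29, -0.25 and -0.23, and within numbers 3 and 4 alone -0.29, 0.22, -0.22 and -0.04. These fits hold 2 against 2 libraries and were chosen after the values were seen. They are given here as values without p-values, and are otherwise only counted among the alternatives at the end.

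**Figure D3:**
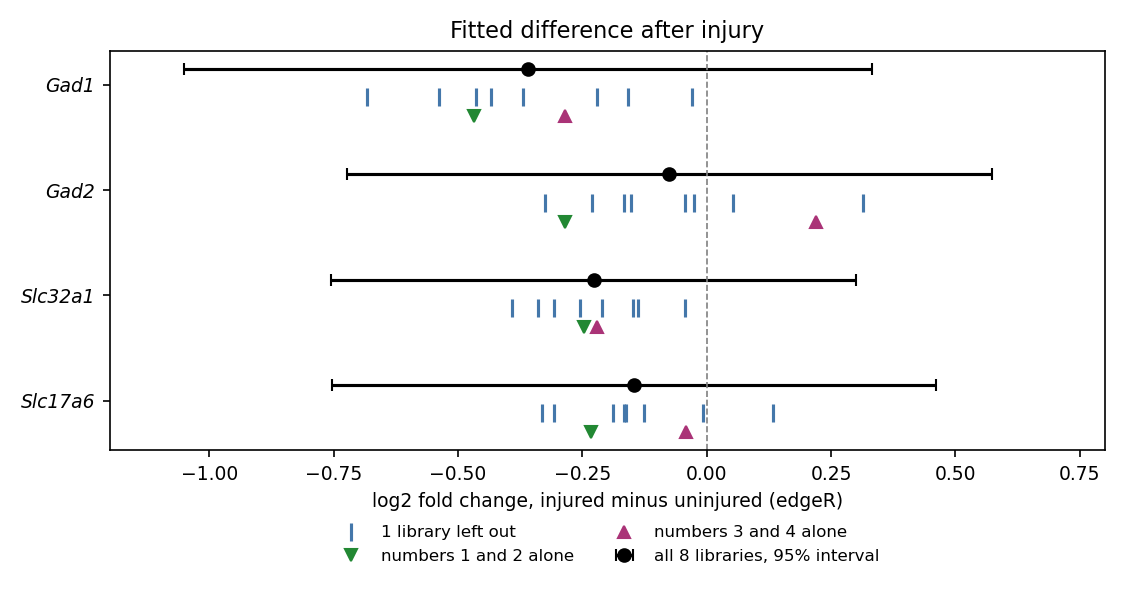
Log2 fold change, injured minus uninjured, from edgeR: black points with 95% intervals use all 8 libraries, blue ticks leave out 1 library each, and triangles use only numbers 1 and 2 or only numbers 3 and 4. All 4 intervals include 0 (dashed line), and values on both sides of 0 occur for Gad2 and Slc17a6.

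Levels of the 4 genes lay further apart between numbers 1 and 2 and numbers 3 and 4 than between the injury groups. That division was picked from these same data, so a wide gap, or ranges without overlap, follows in part from the choice. Gad1 stood at 163 ± 37.1 CPM in the 4 libraries numbered 1 or 2 and at 309 ± 71.8 CPM in the 4 numbered 3 or 4 (SD over 4 libraries). The ranges, 126 to 213 and 242 to 403 CPM, did not overlap. The ratio was 1.78 within uninjured and 2.06 within injured libraries. The other 3 genes went the opposite way: Slc32a1 stood at 405 ± 65.1 CPM in numbers 1 and 2 and 269 ± 33.1 CPM in numbers 3 and 4, Slc17a6 at 355 ± 76.2 and 222 ± 68.7 CPM, and Gad2 at 218 ± 80.9 and 145 ± 35.3 CPM. Slc32a1 and Slc17a6 had ranges that did not overlap, Slc17a6 by a narrow margin (lowest 294 against highest 290 CPM), and Gad2 overlapped. Over all tested genes, 5.84% were higher and 6.32% lower in numbers 3 and 4 without overlap.

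With injury and this division of the numbers in 1 edgeR model, the log2 difference of numbers 3 and 4 from 1 and 2 was 0.97 for Gad1 (standard error 0.21), higher than that of 96.7% of tested genes. It was -0.53 for Gad2, -0.57 for Slc32a1 and -0.62 for Slc17a6 (standard errors 0.26, 0.19 and 0.22). These values are given with no test, since the division into numbers 1 and 2 against 3 and 4 was found in these data. The labels do not say what the numbers stand for, and the part that depth plays was not tested. Libraries numbered 1 and 2 held 374649 and 238236 molecules without injury and 358817 and 378725 after it. Those numbered 3 and 4 held 119808 and 405537 without injury and 153060 and 257354 after it.

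Ratios within a library, which need no scaling between libraries, were taken from the same counts. The share of Gad1 among Gad1 and Slc32a1 was added after these genes were seen to go opposite ways. Its parting by number is therefore no separate support. Gad1 made up 30.3%, 29.6%, 51.1% and 56.0% of the molecules of Gad1 and Slc32a1 in uninjured libraries 1 to 4, and 26.7%, 27.3%, 50% and 55.4% in injured libraries 1 to 4. By number, the injured share differed from the uninjured one by -3.56, -2.27, -1.11 and -0.60 percentage points, while numbers 1 and 2 averaged 28.5% and numbers 3 and 4 averaged 53.1%. In uninjured libraries 1 and 2 the exact 95% binomial intervals were 24.9% to 36.1% and 21.8% to 38.4%. That of uninjured library 3, 35.8% to 66.3%, overlapped both, and that of uninjured library 4 was 50.2% to 61.7%. In injured libraries 1 and 2 the intervals were 20.8% to 33.4% and 20.8% to 34.6%. They lay below those of injured libraries 3 and 4, 37.0% to 63.0% and 46.7% to 63.8%. Share and division were both picked from these counts, so the intervals only describe them. The intervals cover counting error only.

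Between the decarboxylases, Gad1 took 40.7%, 50%, 74.2% and 71.2% of their molecules in uninjured and 36.5%, 47.5%, 60.8% and 65.8% in injured libraries 1 to 4. The group means were 59.0% ± 16.3 and 52.6% ± 13.3 (SD, n = 4 each), a difference smaller than the spread within either group, and the share was lower after injury in 4 of 4 numbers. Gad1 was thus counted more often than Gad2 in both libraries numbered 3 and both numbered 4, and less often in both numbered 1 and in injured library 2; in uninjured library 2 the counts were equal.

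The balance between the inhibitory and the excitatory vesicular carrier was steadier. Slc32a1 made up 51.6%, 56.1%, 64.7% and 52.2% of the molecules of Slc32a1 and Slc17a6 in uninjured libraries 1 to 4, and 53.0%, 53.2%, 47.7% and 57.4% in injured libraries 1 to 4. Group means were 56.1% ± 6.04 and 52.8% ± 3.98 (SD, n = 4 each). The 2 outermost values, 64.7% and 47.7%, came from the libraries numbered 3, with 34 and 65 molecules of both genes and exact 95% binomial intervals of 46.5% to 80.3% and 35.1% to 60.5% that overlap. Of the molecules of all 4 genes, the inhibitory ones made up 73.9% ± 5.78 in uninjured and 71.7% ± 5.47 in injured libraries (SD, n = 4 each), again less apart than libraries of 1 group. That share was lower after injury in 2 of 4 numbers, and the sign of its difference turned without uninjured library 3 (-2.28 percentage points with all libraries, 0.26 without it).

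**Figure D4:**
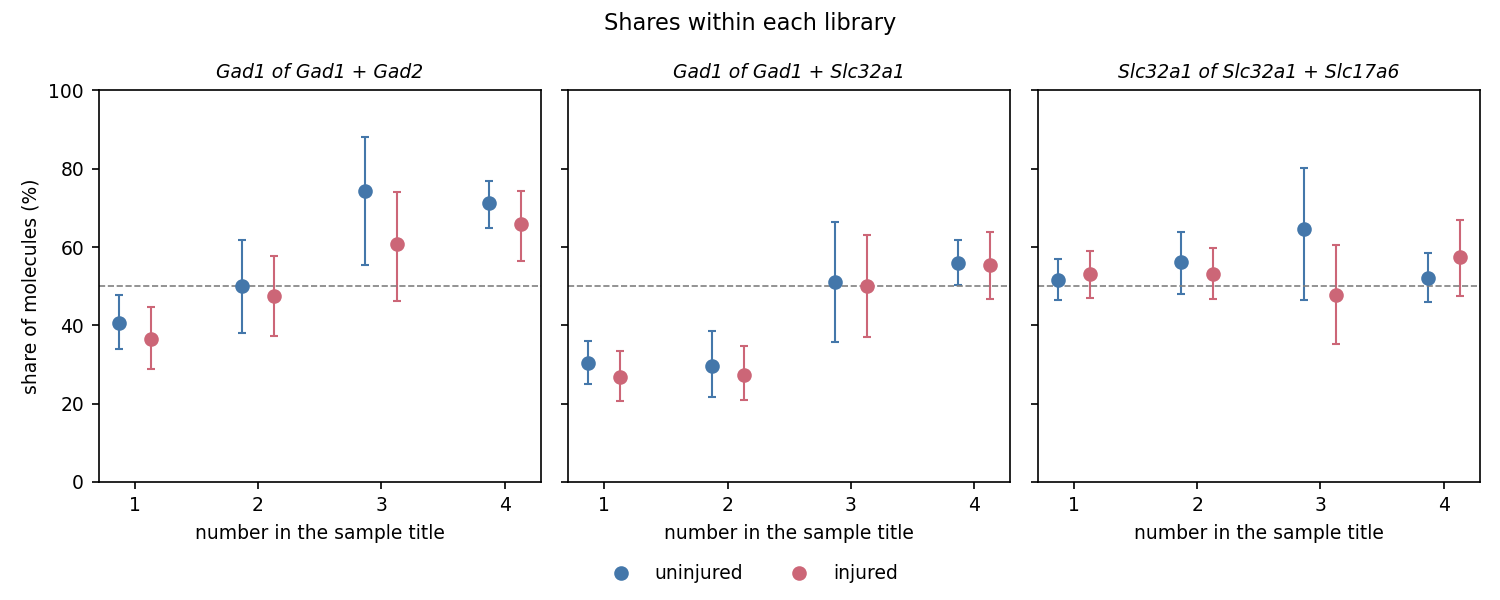
Share of molecules in each library, in percent, by the number in the sample title, for Gad1 among Gad1 and Gad2 (left), Gad1 among Gad1 and Slc32a1 (middle) and Slc32a1 among Slc32a1 and Slc17a6 (right); bars are exact 95% binomial intervals. In the middle panel numbers 1 and 2 lie between 26.7% and 30.3% and numbers 3 and 4 between 50% and 56.0% in both groups, and in the right panel the shares lie between 47.7% and 64.7%.

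The order of the 4 counts is given by library. A molecule is counted once whatever the transcript's length, so these counts are not divided by length. Differences between genes in capture or annotation were not checked, so the order is one of counts. Slc32a1 was the most frequent of the 4 in all libraries numbered 1 or 2, followed by Slc17a6. In both libraries numbered 4 the order was Gad1, Slc32a1, Slc17a6 and Gad2. The libraries numbered 3 resolve little of it. Uninjured library 3 had 23, 22, 12 and 8 molecules in that order, and the exact 95% Poisson intervals of all 4 overlap. Its Gad1 share of Gad1 and Gad2, 74.2%, had an exact 95% binomial interval above an equal share (55.4% to 88.1%, counting error only). That of injured library 3 (46.1% to 74.2%) includes an equal share. Injured library 3 had 34 molecules of Slc17a6, 31 each of Gad1 and Slc32a1 and 20 of Gad2, where the intervals overlap as well. Over group means of CPM, Slc32a1 and Slc17a6 stood first and second in both groups. Neighbours in that order lay closer together than the SD over libraries, which is not the error of a difference within libraries. Within libraries, Slc32a1 and Slc17a6 each had more molecules than Gad2 in every library. Slc32a1 had more than Slc17a6 in every library but injured library 3, and the place of Gad1 varied. The order was not tested.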

How the data were processed

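Molecules per gene were available for 8 CEL-Seq2 libraries (Illumina HiSeq1500) in 1 table. The deposited values are whole-number counts with no normalization. HISAT2 2.0.4, HTSeq 0.6.0 and build Rnor_6.0 are named, per the submitters' processing notes; how molecular identifiers were collapsed and the annotation release are not given in these sources. The labels gave the groups, and column names matched titles with their parts in the other order.

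Genes were kept with edgeR's filterByExpr (minimum count 10, minimum total 15), which left 4159 genes with 92.5% to 94.3% of each library. The test was edgeR's quasi-likelihood test with a robust fit and TMM scaling (R 4.3.3, edgeR 4.0.16). It was two-sided, and p-values were adjusted by Benjamini-Hochberg over all 4159 genes, with calls at 0.05. Standard errors come from the fold change and the F statistic. DESeq2 1.42.0, limma-voom (limma 3.58.1), other scalings and filters, a correction for repeated identifiers (assuming 6 bases), and fits without single libraries were alternatives. CPM of single genes were compared with exact permutation tests (scipy 1.17.1), 4 in all. The test was checked on simulated counts.

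Correlations across genes of deviations from the group means were 0.39, 0.36, 0.17 and 0.45 for libraries numbered 1 to 4 in both groups, and between -0.39 and 0.24 for different numbers. Uninjured 3 correlated with injured 4 (0.16) nearly as much as with injured 3, and numbers 1 and 2 also correlated across the groups (0.24 and 0.17). All 4 same-number values were above 0.1, as were the 0.16, 0.24 and 0.17 of different numbers. Ratios by number and a fit with the number as a block were added on account of the same-number values. This pairing comes from the data and not from a stated design. The main fit and the permutation tests do not use it. No libraries of 1 group were alike within counting noise (lowest chi-square per degree of freedom 3.22).

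The genes, lists and tests were chosen with earlier results of these data known; the promoter motifs, the shares involving Slc32a1 and the fits within number groups were added after the values were seen. The genes named are the 4 chosen, all of them. Gene lists, cell type markers and the search for genes of like pattern were not used, since 0 of 4159 tested identifiers had a symbol in the RefSeq table used here (47357 genes, none with an Ensembl identifier).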

Additional observations from a re-analysis of the deposited data

How the results depend on the processing

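None of the 4 genes passed the threshold in any of 24 alternatives (96 values, of which 92 kept their direction). The lowest adjusted p was 0.194, for Gad1 without both libraries numbered 3 and with the replicate block, where its unadjusted p was 0.0328, the only value of the 4 genes under 0.05 before adjustment. The 4 reversals were Gad2 without uninjured replicate 1 (0.31), without injured replicate 2 (0.05) and within numbers 3 and 4 alone (0.22), and Slc17a6 without uninjured replicate 1 (0.13), all log2 fold changes. Leaving out 1 library gave -0.33 to 0.31 for Gad2 and -0.33 to 0.13 for Slc17a6. With the replicate number as a block the log2 fold changes were -0.35 for Gad1 (standard error 0.17, edgeR adjusted p = 0.378), -0.06 for Gad2, -0.23 for Slc32a1 and -0.16 for Slc17a6, and the block changed no call of these genes. The correction for repeated identifiers adds at most 2.41% to any of their counts. The injured-minus-uninjured difference in the inhibitory share, -2.28 percentage points, ran from -4.91 to 0.26 when 1 library was left out and was 0.58 without both libraries numbered 3, and that in the Gad1 share of Gad1 and Gad2, -6.38, ran from -12.5 to -0.99.

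The number of called genes against which they are read was 41 of 4159 tested in the main fit. With no filter on low counts it was 98 of 12968, a smaller share. It was 110 of 4159 with the replicate block and 72 of 4159 with the 2 number groups as a term. Without both libraries numbered 3 it was 62 of 4660, and 383 of 4660 with the replicate block as well. It was 86 of 4768 within numbers 1 and 2 and 3 of 3226 within numbers 3 and 4. When 1 library was left out it ran from 23 to 77, with 3926 to 4705 genes tested. The cause of these moves was not tested. Fits within number groups were chosen after seeing the data. In the main fit, the 95% intervals of the 4 genes include falls of up to 1.65-fold (Gad2) to 2.07-fold (Gad1). With the replicate block they include falls of up to 1.39-fold (Gad2) to 1.65-fold (Gad1).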
